A study of Mus musculus with 6 samples.

Results

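Growth factor genes of the PDGF, VEGF and FGF families were followed in lung fibroblasts that had been placed in injured mouse lungs. The 10 genes were taken by symbol from the 19865 rows of the count tables. They comprise the ligand genes Pdgfa, Vegfa, Vegfb, Vegfc, Figf, Fgf2 and Fgf7 and the receptor genes Pdgfra, Pdgfrb and Fgfr1. Figf is the older symbol for Vegfd, which encodes VEGF-D. All 10 had a row, and 10 passed the filter on low counts. All are protein-coding in GENCODE M21 (build GRCm38), and the tags are expected from the last exon, whose 3' end lies in the 3' untranslated region.

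The trSrebf1 group (3 libraries) held donor fibroblasts with an active, truncated form of Srebf1c, a transcription factor that switches on lipid synthesis genes. The control group (3 libraries) held donor fibroblasts with the control vector. Donor cells of both groups were primary lung fibroblasts of C57BL/6 mice with a Col1a2-GFP transgene, transduced by retrovirus and marked by hLNGFR, a human surface receptor. Recipients of both groups were C57BL/6 mice given 2 mg/kg of bleomycin, which injures the lung, then 5000000 transduced cells into the airways on day 5. Doxycycline, recorded for both groups, was given at day 7 to induce trSrebf1, and donor cells were sorted on day 10. Cells with CD45, CD31, EpCAM, CD146 or Ter119 were depleted first, and live cells positive for the reporter and hLNGFR were then sorted. Reporter expression depends on the Col1a2 promoter, so the gate selected cells in which that promoter was active. The labels used here give neither the animals' ages nor whether a library is 1 mouse or a pool.

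Each library was made from polyA RNA of 10000 sorted cells and read by 3'SAGE-seq, which counts short tags near the 3' ends of transcripts. Totals were 4151691 to 4688196 counts in trSrebf1 libraries and 3675146 to 4134354 in control libraries. Levels are given as CPM, counts scaled to a common library size with TMM factors of 0.95 to 1.06. Ctsd tags alone took 6.53% to 6.81% of counts in trSrebf1 libraries and 0.86% to 0.95% in control libraries, and leaving Ctsd out changed no call of the 10 genes. Srebf1 tags stood at 28.2 ± 3.30 CPM in trSrebf1 and 7.11 ± 1.72 CPM in control libraries (SD, n = 3 each), but a tag near the 3' end may not tell the transgene from the endogenous gene. The fibroblast genes Col1a1 and Col1a2 were abundant in all 6 libraries. Summed fibroblast markers ranged from 20238 to 23148 CPM in trSrebf1 and from 28722 to 33703 CPM in control libraries. Of 8 tested markers 0 were higher, 7 were lower, Pdgfra among them, and Col1a1 was not past the threshold. Over all tested genes 17.2% were higher and 13% lower.

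PDGF, VEGF and FGF ligands are secreted proteins that bind receptor tyrosine kinases and so reach neighbouring cells. PDGF-A acts mainly through PDGFR-alpha and drives fibroblast growth and migration, while PDGFR-beta is the main receptor for PDGF-B and is typical of pericytes and activated mesenchymal cells. VEGF-A directs blood vessel growth, VEGF-C and VEGF-D direct lymphatic vessel growth, and VEGF-B is tied to vessel survival and lipid handling. FGF-2 stimulates fibroblasts themselves, whereas FGF-7, also called keratinocyte growth factor, is made by fibroblasts and acts on epithelium.

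Within every family, members moved in opposite directions. Vegfa and Vegfb rose while Figf and Vegfc fell, Fgf2 rose while Fgf7 and the receptor gene Fgfr1 fell, and Pdgfrb rose while Pdgfra fell. In all, 4 of 10 genes rose and 5 fell in trSrebf1 fibroblasts, at a threshold of 0.05 on p adjusted by Benjamini-Hochberg over all tested genes in edgeR's quasi-likelihood fit. Pdgfa did not pass the threshold. Across all 10194 tested genes 30.2% passed it, 17.2% higher and 13% lower. For 9 of the 10 genes every trSrebf1 library lay on one side of every control library, against 43.4% of all tested genes. The median log2 fold change was -0.34 over the 10 genes and -0.01 over all tested genes.

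**Figure D1:**
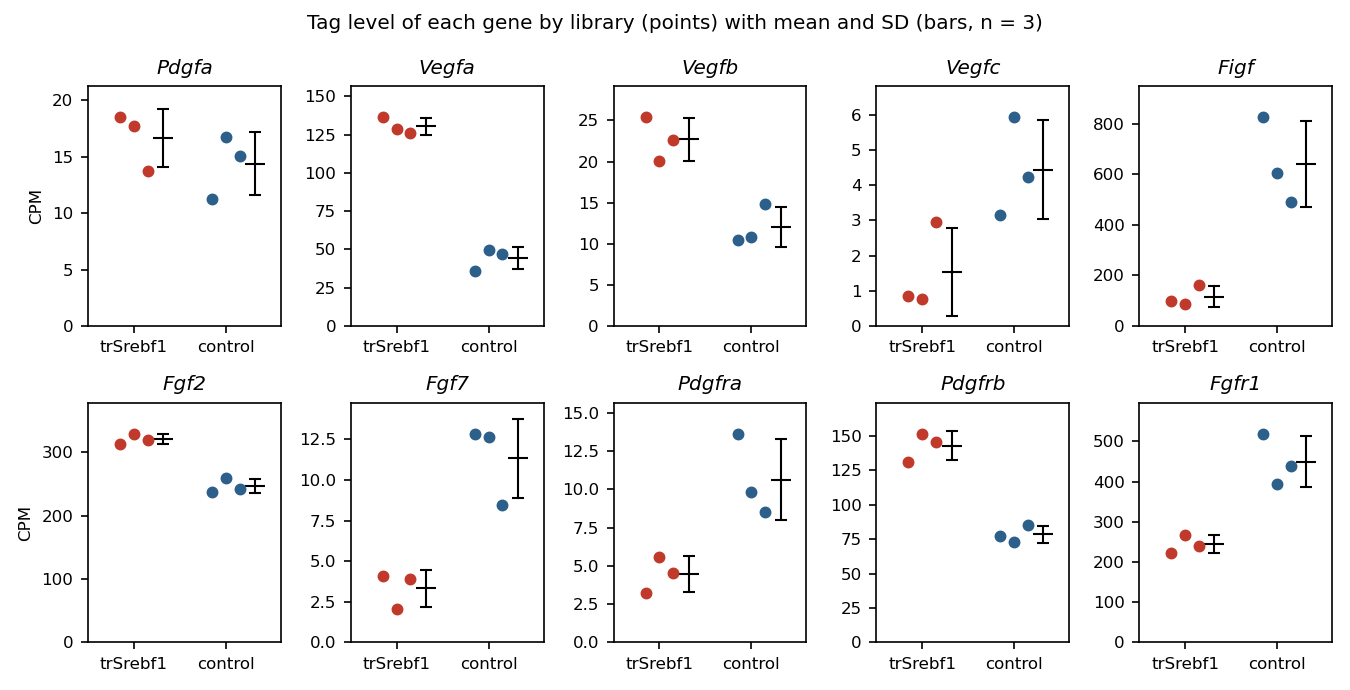
CPM of each of the 10 genes (y axis, linear and starting at 0) in the 3 trSrebf1 libraries (red, left) and the 3 control libraries (blue, right), with bars for the mean and SD. Pdgfa is the gene whose groups overlap, and Figf has the widest spread of levels, from 87.0 to 825 CPM.

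Figf, the ligand gene with the highest level in control cells, had the largest fall of the 10. The gene lies at chrX:164373378-164402650 on the plus strand. Its CPM values were 98.3, 87.0 and 163 in trSrebf1 libraries and 825, 605 and 492 in control libraries. Every trSrebf1 library lay below every control library, and the spread within each group was wide. The mean was 116 ± 40.9 CPM in trSrebf1 and 641 ± 170 CPM in control cells (SD, n = 3 each), a 5.52-fold lower level. The log2 fold change was -2.46 (SE 0.31, adjusted p = 0.00170), and 97.2% of tested genes had a smaller change in size. In bulk samples such as these, fewer cells that express a gene and less RNA per cell cannot be told apart.

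Vegfa (chr17:46016993-46032369, minus strand) moved the other way. It stood at 136, 128 and 126 CPM in trSrebf1 libraries and at 36.2, 49.5 and 46.9 CPM in control libraries. The groups were far apart and the trSrebf1 libraries close together, with a coefficient of variation of 4.07% in trSrebf1 and 16.0% in control. Vegfa rose 2.94-fold, or by 1.56 on the log2 scale (SE 0.14), with an adjusted p of 1.36e-07. The tag does not tell the splice forms of Vegfa apart, so the value covers all of them.

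Vegfb (chr19:6982473-6987651, minus strand) rose as well but from a lower level. It had 25.4, 20.0 and 22.6 CPM in trSrebf1 libraries, against 10.5, 10.8 and 14.9 CPM in control libraries. The groups did not overlap. The log2 fold change was 0.91 (SE 0.21, adjusted p = 0.00320), or 1.88-fold. Vegfc (chr8:54077606-54187096, plus strand) was the least abundant of the 10 genes, with 4, 3 and 13 counts in trSrebf1 libraries and 12, 23 and 18 counts in control libraries. In CPM this is 1.53 ± 1.25 in trSrebf1 and 4.44 ± 1.40 in control (SD, n = 3 each). The highest trSrebf1 library (2.97 CPM) came close to the lowest control library (3.15 CPM). Vegfc fell by 1.51 on the log2 scale (SE 0.51, adjusted p = 0.0319). The Vegfc call did not hold with DESeq2, where adjusted p was 0.0541. Nor did it hold when control library 2 (adjusted p = 0.153), control library 3 (0.0620), trSrebf1 library 1 (0.139) or trSrebf1 library 2 (0.110) was left out, and all settings together spanned 0.00572 to 0.153. With trSrebf1 library 3 left out its log2 fold change was -2.40.

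The mix of VEGF ligand tags therefore differed between groups, as a ratio that no scaling of libraries can alter. Figf made up 37.7%, 36.8% and 51.7% of the summed counts of the 4 VEGF ligand genes in trSrebf1 libraries and 94.3%, 90.1% and 88.2% in control libraries. Vegfa made up 52.3%, 54.4% and 40.1% in trSrebf1 libraries and 4.13%, 7.38% and 8.41% in control libraries. Vegfa and Figf were thus close to even in trSrebf1 cells, where trSrebf1 library 3 held more Figf than Vegfa, while Figf outnumbered Vegfa in every control library. Vegfb took 8.47% ± 1.27 in trSrebf1 and 1.82% ± 0.75 in control, and Vegfc 0.53% ± 0.36 in trSrebf1 and 0.67% ± 0.27 in control (SD, n = 3 each). The summed level of the 4 genes was 271 ± 40.1 CPM in trSrebf1 and 702 ± 161 CPM in control (SD, n = 3 each). These shares follow from the gene values above and were given no test of their own.

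**Figure D2:**
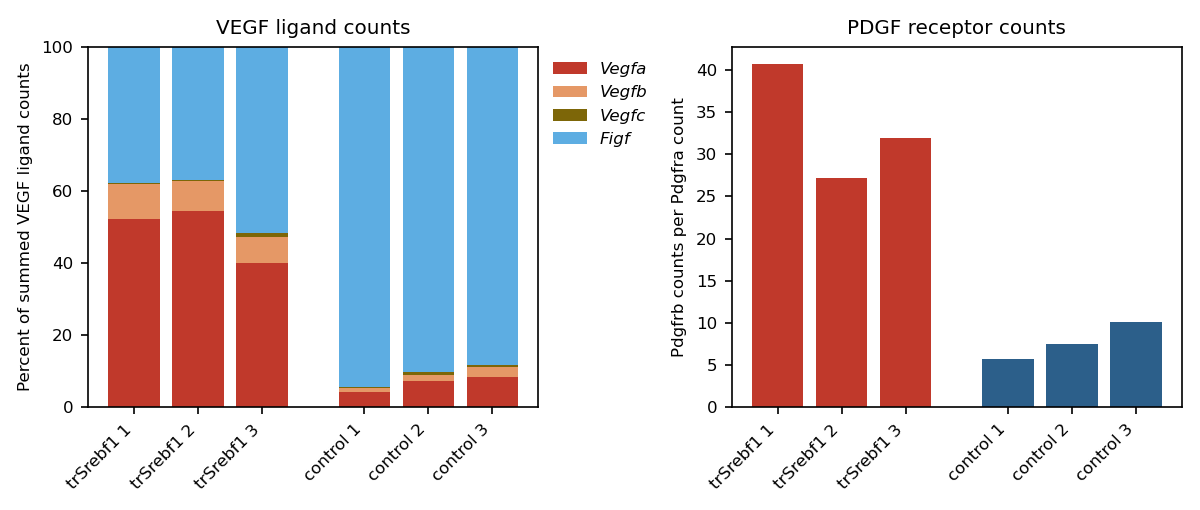
Left, share of each VEGF ligand gene in the summed VEGF ligand counts of a library (y axis, percent), with the 3 trSrebf1 libraries left of the 3 control libraries. Right, Pdgfrb counts per Pdgfra count, at 27.1 to 40.7 in trSrebf1 and 5.67 to 10.1 in control libraries.

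RefSeq start-site sequences of Vegfa and Vegfb, which rose, and of Figf, which fell, are shown because these ligand genes moved in opposite directions. Each run below covers 250 bases before to 50 bases after the start site, in build GRCm38.p6, 5′ to 3′ on the gene's strand. Capitals mark matches to the GC box GGGCGG or the TATA box TATAAA on either strand.
Vegfa, chr17:46032328-46032627, minus strand: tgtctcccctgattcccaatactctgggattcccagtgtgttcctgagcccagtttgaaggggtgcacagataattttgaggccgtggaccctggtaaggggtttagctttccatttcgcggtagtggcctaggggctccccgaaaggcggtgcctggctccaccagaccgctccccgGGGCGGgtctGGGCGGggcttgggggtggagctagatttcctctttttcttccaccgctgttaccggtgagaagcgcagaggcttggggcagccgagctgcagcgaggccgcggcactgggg
Vegfb, chr19:6987602-6987901, minus strand: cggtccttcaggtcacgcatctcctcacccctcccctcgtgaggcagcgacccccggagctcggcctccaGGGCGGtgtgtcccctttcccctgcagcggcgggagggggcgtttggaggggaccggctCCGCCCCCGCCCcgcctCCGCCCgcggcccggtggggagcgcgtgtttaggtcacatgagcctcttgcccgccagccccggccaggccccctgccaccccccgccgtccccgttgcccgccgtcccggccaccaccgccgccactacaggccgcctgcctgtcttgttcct
Figf, chrX:164373272-164373571, plus strand: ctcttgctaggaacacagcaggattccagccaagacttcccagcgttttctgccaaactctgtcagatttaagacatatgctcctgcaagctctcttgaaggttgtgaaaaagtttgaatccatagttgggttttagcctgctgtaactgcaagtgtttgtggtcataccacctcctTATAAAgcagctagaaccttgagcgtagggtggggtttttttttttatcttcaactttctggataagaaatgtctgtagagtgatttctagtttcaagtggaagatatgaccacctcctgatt
Vegfa held 2 GC box matches and Vegfb 4, while Figf held 0 GC box matches and 1 TATA box match. Among all 32851 promoter windows of this length 35.7% held a GC box and 13.6% a TATA box. GC content was 62.0% for Vegfa, 75.3% for Vegfb and 42.0% for Figf, against a median of 52.7% over all windows. The window of Vegfc, which fell like Figf, had a GC content of 70.3% and 2 GC box matches. GC content therefore did not follow direction among the VEGF ligand genes. A second Vegfa start site lies within the gene (chr17:46025114-46025413) and its window held 1 match to the hypoxia response element core ACGTG, found in 19.6% of windows. The sterol regulatory element TCACNCCAC, a site bound by SREBP proteins, had 0 matches in the windows of the genes described here, where 1.24% of all windows hold it, and the E-box CACGTG had 0 where 7.15% hold it. No match says only that these letters are absent from these windows, and a match says only that they are present.

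Fgf2 (chr3:37348346-37410108, plus strand) had the highest level of the 10 genes in trSrebf1 cells and the smallest called change. It stood at 313, 329 and 320 CPM in trSrebf1 libraries and at 238, 259 and 242 CPM in control libraries. Replicates were tight in each group and did not overlap between groups. Fgf2 rose 1.30-fold (log2 fold change 0.38, SE 0.10, adjusted p = 0.00785). With control library 3 left out the adjusted p was 0.0530, and all settings together spanned 0.00741 to 0.0530. The last exon of Fgf2 overlaps exons of Nudt6 on the opposite strand over 640 bases and the transcript Gm43439 on its own strand over 255 bases, and the use of strand in the counting is not given. Nudt6 itself had 3 to 5 counts in trSrebf1 libraries and 2 to 5 in control libraries, but reads of these genes cannot be told apart where they overlap.

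Fgf7 (chr2:126034658-126091185, plus strand) fell. Its CPM values were 4.09, 2.03 and 3.88 in trSrebf1 libraries, from 19, 8 and 17 counts, and 12.8, 12.6 and 8.49 in control libraries, from 49, 49 and 36 counts. The groups did not overlap at this low level. Fgf7 fell by 1.74 on the log2 scale (SE 0.32), a 3.33-fold lower level with an adjusted p of 4.81e-04. For each Fgf7 tag there were 76.5, 162 and 82.4 Fgf2 tags in trSrebf1 libraries and 18.5, 20.4 and 28.5 in control libraries.

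Windows around the start sites of these opposed FGF ligand genes are given in the same way, with GC box matches in capitals.
Fgf2, chr3:37348403-37348702, plus strand: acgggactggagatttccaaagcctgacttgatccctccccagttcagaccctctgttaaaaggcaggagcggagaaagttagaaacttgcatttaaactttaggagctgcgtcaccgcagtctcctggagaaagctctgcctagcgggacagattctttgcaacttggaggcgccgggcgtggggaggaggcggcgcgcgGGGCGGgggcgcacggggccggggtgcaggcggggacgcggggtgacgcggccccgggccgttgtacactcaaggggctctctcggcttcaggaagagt
Fgf7, chr2:126034408-126034707, plus strand: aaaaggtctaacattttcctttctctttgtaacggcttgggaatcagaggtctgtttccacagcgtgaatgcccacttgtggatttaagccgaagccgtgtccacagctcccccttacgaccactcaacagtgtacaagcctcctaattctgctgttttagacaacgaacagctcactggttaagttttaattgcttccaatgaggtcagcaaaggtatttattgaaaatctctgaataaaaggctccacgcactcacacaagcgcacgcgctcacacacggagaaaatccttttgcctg
Fgf2 held 1 GC box match and Fgf7 held 0, with GC contents of 62.7% for Fgf2 and 45.7% for Fgf7. Promoter windows of 8 of the 10 genes were in the table used. Those of Pdgfa held 1 GC box match at one start site and 2 at the other, that of Vegfc held 2 and that of Pdgfra 0, so a GC box match was found for genes that rose, fell or did not pass.

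Fgfr1, the receptor for FGF-2 that fibroblasts carry, fell while its ligand gene rose. Fgfr1 lies at chr8:25513654-25575718 on the plus strand. It had 223, 268 and 240 CPM in trSrebf1 libraries and 519, 393 and 437 CPM in control libraries. Every trSrebf1 value was well below the control values, and the fall was 1.84-fold (log2 fold change -0.88, SE 0.12, adjusted p = 2.01e-05). Some Fgfr1 transcripts end in a stretch of 54 to 102 bases that matches transcripts of 27 other genes at 95% to 96.8% identity, so tags from those ends may have been dropped or shared.

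Among PDGF genes the receptors parted. Pdgfra (chr5:75152292-75198215, plus strand), the receptor gene that marks resident lung fibroblasts, had 3.23, 5.58 and 4.57 CPM in trSrebf1 libraries (15, 22 and 20 counts) and 13.6, 9.80 and 8.49 CPM in control libraries (52, 38 and 36 counts). The groups did not overlap, and Pdgfra fell by 1.26 on the log2 scale (SE 0.31, adjusted p = 0.00452). Pdgfra is also 1 of the 7 fibroblast markers that fell, and the part of that wider fall in its own was not tested. Pdgfrb, on the plus strand of chromosome 18 (61045150 to 61085061), stood at 131, 151 and 146 CPM in trSrebf1 libraries and at 77.4, 73.0 and 85.4 CPM in control libraries. It was higher in 3 of 3 trSrebf1 libraries than in any control library and rose 1.82-fold (log2 fold change 0.86, SE 0.12, adjusted p = 2.69e-05).

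Pdgfrb tags outnumbered Pdgfra tags in all 6 libraries. The number of Pdgfrb counts per Pdgfra count was 40.7, 27.1 and 31.9 in trSrebf1 libraries and 5.67, 7.45 and 10.1 in control libraries. As a log2 ratio of Pdgfra to Pdgfrb this was -5.03 ± 0.29 in trSrebf1 and -2.91 ± 0.41 in control (SD, n = 3 each).

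Pdgfa (chr5:138976014-138997370, minus strand), the ligand gene for PDGFR-alpha, had 18.5, 17.8 and 13.7 CPM in trSrebf1 libraries and 11.3, 16.8 and 15.1 CPM in control libraries. The groups overlapped. Its log2 fold change was 0.21 (95% interval -0.26 to 0.68, adjusted p = 0.533), so a change of up to 0.68 on the log2 scale lies within the interval.

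**Figure D3:**
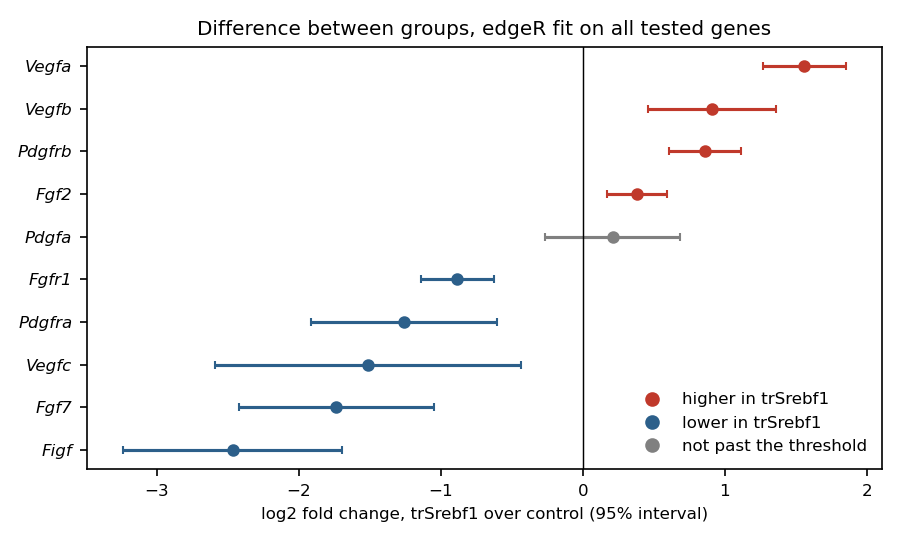
Log2 fold change of trSrebf1 over control for the 10 genes (x axis) with 95% intervals from the edgeR fit, in red where higher, in blue where lower and in grey where not past the threshold. Vegfa lies highest at 1.56 and Figf lowest at -2.46, and the interval of Pdgfa spans 0.

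Markers of cells that carry PDGFR-beta or make these factors were read in the same libraries. Summed pericyte and smooth muscle markers, Pdgfrb not included, ranged from 223 to 258 CPM in trSrebf1 and from 142 to 160 CPM in control libraries. The rise of the sum lay mainly in 1 gene, Cspg4, at 121 CPM in trSrebf1 and 16.4 CPM in control. Of 8 tested markers 2 rose, Cspg4 and Des, and 5 fell. Those that fell were Kcnj8, Abcc9, Lmod1, Cnn1 and, with overlapping groups, Myh11 (adjusted p = 0.0497). Over all tested genes 17.2% rose and 13% fell. Rgs5, a defining pericyte gene, stood at 0.08 CPM in trSrebf1 and 0.09 CPM in control, and Mcam, which encodes the CD146 of the depletion, at 0.67 CPM in trSrebf1 and 0.94 CPM in control. The part of these cells in the Pdgfrb result was not tested. Des rose by 0.49 on the log2 scale, with adjusted p of 0.0551 when control library 3 and 0.0630 when trSrebf1 library 3 was left out, and 0.00504 to 0.0630 over all settings. Summed endothelial markers ranged from 173 to 188 CPM in trSrebf1 and from 197 to 226 CPM in control, nearly all of it Ecscr at 167 CPM in trSrebf1 and 202 CPM in control. Of 3 tested endothelial markers Egfl7 and Esam rose, by 3.43 and 1.49 on the log2 scale, both at low levels. Egfl7 had 32, 29 and 25 counts in trSrebf1 libraries and 2, 3 and 2 counts in control libraries, near the floor. Esam averaged 4.05 CPM in trSrebf1 and 1.44 CPM in control. Esam (adjusted p = 0.0225) did not pass with DESeq2 (0.0599) or with control library 3 (0.104) or trSrebf1 library 1 (0.142) left out, and all settings spanned 0.0199 to 0.142. Pecam1 and Cdh5 had 0 CPM in every trSrebf1 library and averaged 0.08 and 0.09 CPM in control. Macrophage markers with a row (5 of 8) summed to 0.91 to 2.79 CPM in trSrebf1 and 1.03 to 4.72 CPM in control. Epithelial markers, led by Krt19 and Sftpb, summed to 8.45 to 28.7 CPM in trSrebf1 and 20.9 to 25.9 CPM in control, with 0 of 3 tested markers higher and 1 lower. Krt19, an epithelial keratin, had 32, 32 and 7 counts in trSrebf1 libraries and 51, 44 and 52 counts in control libraries (log2 fold change -1.16, adjusted p = 0.0317). Krt19 stayed past the threshold in only 1 of 6 fits with a library left out, that without trSrebf1 library 2. Leaving out trSrebf1 library 3 gave a log2 fold change of -0.71 (adjusted p = 0.0834), and leaving out trSrebf1 library 1 or control library 1, 2 or 3 gave adjusted p of 0.0523, 0.0804, 0.0673 and 0.0719, in a range of 0.00123 to 0.0834 over all settings. Sftpb had 5.81, 15.5 and 2.97 CPM in trSrebf1 libraries and 6.82, 3.61 and 8.26 CPM in control libraries, and the groups overlapped.

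The assay counts a tag region per transcript, so levels can be ordered between genes without a division by length, although the share of transcripts captured may differ from gene to gene. In trSrebf1 cells the order of mean CPM was Fgf2, Fgfr1, Pdgfrb, Vegfa, Figf, Vegfb, Pdgfa, Pdgfra, Fgf7 and Vegfc. Ranges over libraries overlapped there among Pdgfrb, Vegfa and Figf, between Pdgfra and Fgf7, and between Fgf7 and Vegfc. The control order was Figf, Fgfr1, Fgf2, Pdgfrb, Vegfa, Pdgfa, Vegfb, Fgf7, Pdgfra and Vegfc. Here Figf overlapped Fgfr1, and Pdgfa, Vegfb, Fgf7 and Pdgfra overlapped one another. Together the 10 genes took 0.09% to 0.10% of the counts in trSrebf1 libraries and 0.14% to 0.17% in control libraries.

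For Pdgfrb, Figf and Fgfr1, the genes of highest mean CPM over all 6 libraries in their families, the genes with the most similar pattern over the 6 libraries were sought among 3779 others with a mean of 20 CPM or more. In trSrebf1 libraries alone Vegfa (130.4 CPM) exceeded Figf (116 CPM) on average and Fgf2 (320.4 CPM) exceeded Fgfr1 (244 CPM). Likeness was the mean absolute difference of log2 CPM after centring each gene on its own mean. P4ha1 and Hagh lay nearest to Pdgfrb, at 0.02 and 0.04. Anxa5 and Pim1 lay nearest to Fgfr1, at 0.03 each. Sfrp1 and Art4 lay nearest to Figf, at 0.24 each. Few genes change as much as Figf, since 97.2% of tested genes changed less, and its replicates spread widely. Its distances therefore cannot be set against those of Pdgfrb and Fgfr1.

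Other genes of the same pathways were taken from 8 lists of 104 symbols. A row existed for 93 of them, 71 passed the filter on low counts, and 14 rose and 15 fell, which is 40.8% of those tested against the 30.2% of all genes. Their median log2 fold change was -0.11. All 8 lists were chosen with earlier results of these data known, so their shares give no test of a pathway. In the list of other PDGF genes 0 of 3 tested passed the threshold in either direction by edgeR. Pdgfb averaged 8.53 ± 0.96 CPM in trSrebf1 and 3.81 ± 3.30 CPM in control (SD, n = 3 each), with control library 3 at 7.55 CPM and the other control libraries at 1.31 and 2.58 CPM. Its adjusted p was 0.0644. Pdgfb passed when control library 3 was left out (adjusted p = 0.00102), with no filter on low counts (0.00859), in limma-voom (0.0275) and with a replicate block (0.0463), and all settings spanned 0.00102 to 0.214. Pdgfc, a further ligand of PDGFR-alpha, stood at 31.3 ± 2.36 CPM in trSrebf1 and 36.8 ± 2.44 CPM in control (adjusted p = 0.284). Pdgfrl, a receptor-like gene, stood at 22.5 CPM in trSrebf1 and 29.4 CPM in control (adjusted p = 0.153), and its adjusted p was 0.0246 to 0.430 over the settings, lowest when control library 1 was left out.

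Of 3 tested further VEGF genes 2 fell and 0 rose, where 13% of all tested genes fell and 17.2% rose. Nrp1, a coreceptor that binds VEGF-A, had 56.6, 54.1 and 48.4 CPM in trSrebf1 libraries and 119, 103 and 103 CPM in control libraries. It fell 2.04-fold while Vegfa rose (log2 fold change -1.03, SE 0.13, adjusted p = 8.89e-06). Pgf, the placental growth factor gene, had 18, 5 and 5 counts in trSrebf1 libraries and 23, 28 and 20 in control libraries. Pgf fell by 1.47 on the log2 scale (adjusted p = 0.0175). It no longer passed when control library 2 (adjusted p = 0.0764), trSrebf1 library 2 (0.0651) or trSrebf1 library 3 (0.0770) was left out, all settings spanned 0.00293 to 0.0770, and leaving out trSrebf1 library 1 gave a log2 fold change of -2.28. Nrp2, a coreceptor for VEGF-C and VEGF-D, stood at 73.8 ± 19.3 CPM in trSrebf1 and 88.5 ± 13.5 CPM in control (adjusted p = 0.290). Nrp2 passed when trSrebf1 library 2 was left out (adjusted p = 0.0485), and all settings spanned 0.0485 to 0.754. The VEGF receptor genes were near the limit of detection. Flt1 had 1 to 5 counts in trSrebf1 libraries and 0 to 15 in control libraries, Kdr 2 to 9 in trSrebf1 and 3 to 6 in control, and Flt4 1 to 7 in trSrebf1 and 3 to 9 in control. These receptor genes were below the filter and were not tested.

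Of 20 other FGF ligand genes 4 were tested. Fgf21, an endocrine FGF made in fasting liver and under stress, rose, with 46, 27 and 32 counts in trSrebf1 libraries and 6, 5 and 14 in control libraries. Fgf21 rose 3.82-fold (log2 fold change 1.93, SE 0.39, adjusted p = 8.98e-04). Fgf18, a ligand with roles in lung and cartilage development, averaged 9.02 CPM in trSrebf1 and 15.7 CPM in control and fell by 0.81 on the log2 scale (adjusted p = 0.0282). Fgf18 missed the threshold when control library 2 (adjusted p = 0.0871), control library 3 (0.104), trSrebf1 library 1 (0.137) or trSrebf1 library 3 (0.0744) was left out, with 0.0113 to 0.137 over all settings. Fgf11, an FGF that stays inside the cell, stood at 3.89 CPM in trSrebf1 and 6.83 CPM in control (adjusted p = 0.0915). Among other FGF receptors both tested genes passed, in opposite directions, where 30.2% of all tested genes passed. Fgfrl1, which lacks a kinase domain, rose with 9.03, 9.14 and 8.45 CPM in trSrebf1 libraries and 4.72, 3.61 and 4.25 CPM in control libraries (log2 fold change 1.08, SE 0.29, adjusted p = 0.00848). Fgfr2, the receptor gene whose epithelial form binds FGF-7, averaged 4.20 CPM in trSrebf1 and 8.83 CPM in control (log2 fold change -1.07, adjusted p = 0.0208). Leaving out control library 2 (adjusted p = 0.162), trSrebf1 library 1 (0.0730) or trSrebf1 library 3 (0.0696) ended the Fgfr2 call, with 0.00900 to 0.162 over all settings.

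Of 18 tested genes that carry the signal inside the cell 3 rose, 1 fell and 14 did not pass, so 22.2% were called, against 30.2% of all tested genes. Mapk3, which encodes ERK1, rose to 133 ± 16.5 CPM in trSrebf1, against 62.9 ± 4.44 CPM in control (SD, n = 3 each, adjusted p = 5.08e-06). Sos1, the exchange factor that activates RAS, rose to 77.6 ± 3.49 CPM in trSrebf1, against 40.0 ± 1.45 CPM in control (adjusted p = 2.98e-05), and its adaptor Grb2 rose by 0.72 on the log2 scale (adjusted p = 0.00565). Nras fell by 0.33 (adjusted p = 0.0299). Nras did not pass when control library 2 (adjusted p = 0.122) or trSrebf1 library 1 (0.0582), 2 (0.0826) or 3 (0.110) was left out, with no filter on low counts (0.0533) or with a replicate block (0.0583), and all settings spanned 0.00970 to 0.122. Frs2, Ptpn11, Pik3r1 and Braf had log2 fold changes of -0.02, -0.08, -0.19 and -0.11, with adjusted p-values of 0.957, 0.595, 0.321 and 0.650.

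The list of feedback and ETS target genes, some of which receptor signalling induces, split with 3 higher and 4 lower of 15 tested. So 46.7% were called, against 30.2% of all tested genes. Dusp6, a phosphatase that switches off ERK, had 27.5, 42.9 and 23.3 CPM in trSrebf1 libraries and 70.3, 56.5 and 63.7 CPM in control libraries, and fell by 1.03 on the log2 scale (adjusted p = 7.01e-04). Dusp4, a phosphatase of the same class, rose, with 15.3, 17.3 and 9.82 CPM in trSrebf1 libraries and 4.98, 4.39 and 2.12 CPM in control libraries (log2 fold change 1.88, adjusted p = 2.73e-04). Etv5 averaged 10.2 CPM in trSrebf1 and 4.72 CPM in control and rose by 1.10 on the log2 scale (adjusted p = 0.0212). The groups of Etv5 overlapped. Spry3, a Sprouty family gene, rose (adjusted p = 3.29e-08), with 110, 65 and 80 counts in trSrebf1 libraries and 0, 2 and 0 counts in control libraries. The ratio of its summed, scaled counts was 117 (exact 95% interval 32.1 to 974, counting error only). Both control counts came from control library 2, and the fitted log2 fold change was 6.63 with all libraries and 9.36 without that one. Spry1 and Spry2, feedback inhibitors of the same family, fell. Spry1 had 8, 2 and 2 counts in trSrebf1 libraries and 16, 25 and 11 in control libraries (log2 fold change -2.22, adjusted p = 0.00537). Its adjusted p was 0.0503 with control library 2 left out, 0.000617 to 0.0503 over all settings, and its log2 fold change was -3.10 with trSrebf1 library 1 left out. Spry2 averaged 5.80 CPM in trSrebf1 and 12.2 CPM in control (adjusted p = 0.0109). With control library 1 left out that p was 0.0671, the highest of 0.00349 to 0.0671. Spry4 and Spred1 had log2 fold changes of -0.12 and 0.08 (adjusted p = 0.661 and 0.653). Rasa1, a RAS inhibitor, fell by 0.60 (adjusted p = 0.0111), and had an adjusted p of 0.0542 when trSrebf1 library 1 was left out, the highest of 0.00455 to 0.0542 over all settings.

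Heparan sulphate chains on cell surface proteoglycans hold FGF and VEGF ligands near their receptors. In that list 3 of 19 tested genes rose and 3 fell, so 31.6% were called, near the 30.2% of all tested genes. Cspg4, a chondroitin sulphate proteoglycan (NG2) that binds PDGF-AA and FGF-2 and is listed with them, had 119, 141 and 102 CPM in trSrebf1 libraries and 14.2, 11.9 and 23.1 CPM in control libraries (log2 fold change 2.87, SE 0.21, adjusted p = 4.57e-08). Gpc1, a glypican that binds FGF-2, rose to 95.4 ± 6.73 CPM in trSrebf1, against 27.8 ± 8.46 CPM in control (SD, n = 3 each, adjusted p = 1.19e-06). Sdc4, the most abundant syndecan gene, fell to 1280 ± 109 CPM in trSrebf1, against 1881 ± 332 CPM in control (adjusted p = 0.00173). Ext1, which builds the chains, fell by 0.66 on the log2 scale (adjusted p = 0.00219). Sdc1, Sdc2, Ext2, Hs2st1, Ndst1 and Sulf1 did not pass, with log2 fold changes of -0.38 to 0.32. Of these, Hs2st1 passed with upper-quartile factors (adjusted p = 0.0421) and when control library 1 was left out (0.0439), with 0.0421 to 0.254 over all settings.

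Among proteases and cofactors that process growth factors 3 of 7 tested genes rose, 3 fell and 1 did not pass. So 85.7% were called, against 30.2% of all tested genes, in a list chosen with earlier results known. Ctsd, whose protein cathepsin D has been shown in human cells to activate VEGF-C and VEGF-D, rose 7.67-fold to 69139 ± 2997 CPM in trSrebf1, against 9018 ± 236 CPM in control (SD, n = 3 each, adjusted p = 1.97e-13). Furin, which cleaves PDGF-A and VEGF-C precursors, had 52.1, 55.1 and 48.2 CPM in trSrebf1 libraries and 24.9, 28.6 and 33.5 CPM in control libraries (log2 fold change 0.83, adjusted p = 6.09e-04). Pcsk5, a convertase of the same family, fell, with 43.7, 24.4 and 24.2 CPM in trSrebf1 libraries and 144, 115 and 88.7 CPM in control libraries (log2 fold change -1.90, SE 0.25, adjusted p = 2.31e-04). Ccbe1, a cofactor for the cleavage of VEGF-C, fell to 9.40 ± 2.09 CPM in trSrebf1, against 25.4 ± 9.81 CPM in control (SD, n = 3 each, adjusted p = 6.79e-04). Plau, which encodes urokinase, averaged 2.63 CPM in trSrebf1 and 6.30 CPM in control (log2 fold change -1.26, adjusted p = 0.0164). Plau missed the threshold with control library 3 (adjusted p = 0.111) or trSrebf1 library 3 (0.0719) left out, and all settings spanned 0.0108 to 0.111. Plat, the plasminogen activator that activates PDGF-C, rose to 446 CPM in trSrebf1, against 265 CPM in control (log2 fold change 0.75). Pcsk7 stood at 132 CPM in trSrebf1 and 126 CPM in control (adjusted p = 0.708).

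**Figure D4:**
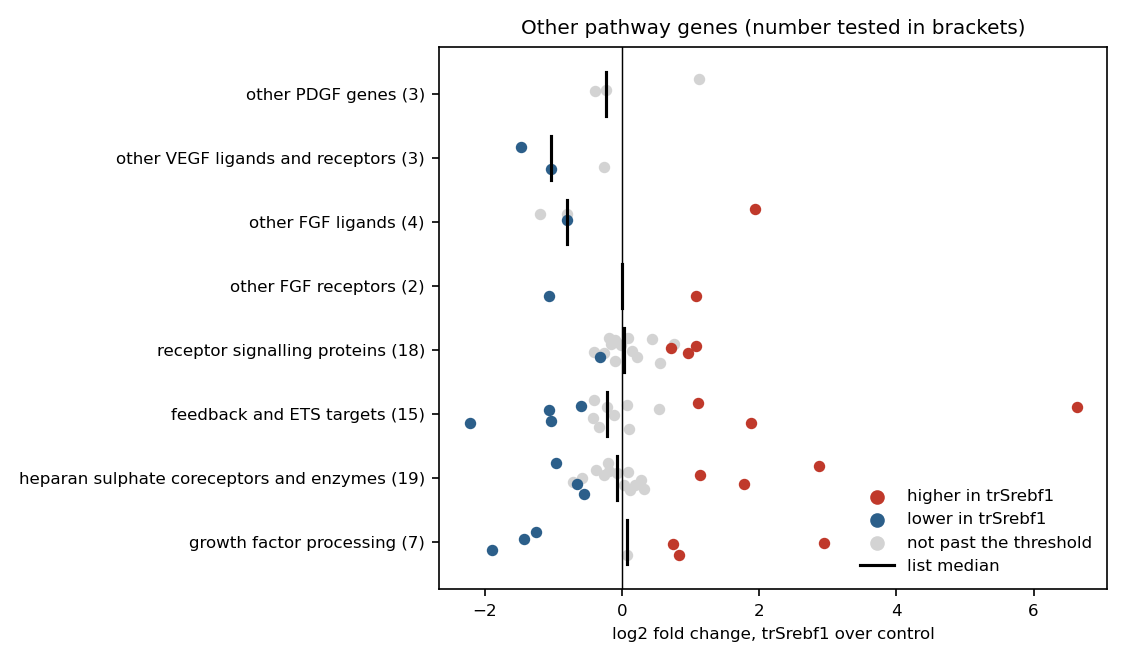
Log2 fold change of trSrebf1 over control (x axis) for the tested genes of 8 pathway lists (from top to bottom), red where higher, blue where lower and grey where not past the threshold, with a black line at each list's median. Called genes lie on both sides of 0 in 6 of the 8 lists, the other two being the PDGF and VEGF lists, and Spry3 lies farthest to the right.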

How the data were processed

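The authors deposited a table of raw counts for each library, in whole tags per gene. The submitters' processing notes name Bowtie2 2.2.5 and mm10 without a role. For the counter, the annotation and strand, the setting is not given in the sources used.

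These counts were filtered by filterByExpr, at a minimum count of 10 and a total of 15, scaled by TMM and tested by a robust quasi-likelihood fit (glmQLFit, glmQLFTest; edgeR 4.0.16, R 4.3.3). The group was the only term and the two-sided threshold was 0.05 on Benjamini-Hochberg adjusted p over 10194 genes. Standard errors are the log2 fold change divided by the square root of F. The test was checked on simulated counts. DESeq2 1.42.0 and limma-voom (limma 3.58.1) were alternatives, with other factors and filters, a replicate block and each library left out.

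The genes and lists were chosen with earlier results of these data known. Named genes beyond the 10 were up to 3 per list with the smallest p and any above 20 CPM, and the leading markers. Nudt6, Rgs5, Mcam, Kcnj8, Abcc9, Myh11, Lmod1, Cnn1, Pecam1, Cdh5, Esam, Spry1, Spry2, Etv5, Ccbe1, Plau, Flt1, Kdr and Flt4 and the GC and TATA box motifs were added after values or sequences were seen. Positions and 3' ends (last 500 bases, matches of 50 bases or more at 95% identity) come from GENCODE M21 and promoters from RefSeq, both GRCm38. Chi-square per degree of freedom was 4.52 to 8.13 between replicates of a group, where counting noise alone gives about 1, so none was taken as a copy. The labels do not say whether replicates came from separate mice or cultures, so p-values measure the spread between libraries, which may be technical. Intervals from counts cover counting error only.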

Additional observations from a re-analysis of the deposited data

How the results depend on the processing

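Of 15 alternatives, each run for every gene that its filter kept, 8 of the 10 genes kept direction and side of the threshold in all. Vegfc (log2 fold change -1.53 under DESeq2, and -2.40 to -1.20 with a library left out) and Fgf2 (0.35 to 0.41 with a library left out) lost the call in the settings named above, and the cause was not tested. Vegfc was not tested under the filter of 5 CPM in 3 libraries. Members called numbered 3 to 4 higher and 4 to 5 lower, and pathway genes 12 to 16 higher and 10 to 16 lower. Genes called over the whole table numbered 1535 to 1977 higher and 1060 to 1649 lower. Uncalled values near 0 changed sign: with upper-quartile factors Spred1 (-0.0066) and Pcsk7 (-0.015), and with a library left out Spred1 (-0.00064 to 0.15), Pcsk7 (-0.0057 to 0.17), Sulf1 (-0.027 to 0.20), Frs2 (-0.070 to 0.092), Spry4 (-0.24 to 0.0034) and Sftpb (-0.50 to 0.75). The main fit did not pair libraries by replicate number. Deviations of same-numbered libraries correlated at -0.11 to 0.01 across genes, and 1 of 6 libraries correlated best with its own number. With 3 libraries per group these values show no pairing but cannot exclude one. With the replicate block 1646 genes were higher and 1174 lower, 4 and 5 of the 10 genes were called, with log2 fold changes of 1.57 for Vegfa and -2.49 for Figf. Counts of 3 to 13 tags limit Vegfc in trSrebf1 libraries.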
